A study of Mus musculus with 8 samples.

Results

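The genes described here encode the proteasome and its helpers. They were taken by symbol: every gene of the array annotation whose symbol begins with Psma, Psmb, Psmc, Psmd, Psme, Psmf or Psmg followed by a digit. The rule found 50 genes among 19505 measured, each with 1 probe set. Of these, 48 are known as subunits, activators, inhibitors or assembly chaperones. The other 2 are Psmc3ip, a cofactor of meiotic recombination, and Psme3ip1, a partner of the activator encoded by Psme3. They match the rule by name and are listed apart.

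Hematopoietic stem cells came from the bone marrow of mice aged 6 to 10 weeks. They were sorted for Sca-1, c-Kit and CD150 and against lineage markers and CD48. All cells were cultured with stem cell factor at 100 ng/ml. For 16 h they received eltrombopag at 10 µg/ml, a drug given to raise platelet counts that also binds iron, or sterile water as the vehicle. Both groups have 4 arrays, with numbers 1 to 4 in the titles. The labels give no strain and describe the arrays as biological replicates, without stating separate animals. Any p-value or interval therefore rests on the scatter among these 8 arrays, which may be technical. The drug was added to isolated cells in a dish.

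The proteasome degrades proteins tagged with ubiquitin. Its core particle is a barrel of alpha and beta rings, and 3 kinds of beta subunit cut the peptide chain. The regulatory particle caps the barrel: a ring of ATPases unfolds the substrate, and the other subunits bind ubiquitin, cut it off and hold the cap together. Interferon and blood lineage identity bring in inducible beta subunits, which replace the constitutive cutting subunits and favour peptides for display to T cells. When proteasome activity is short, the transcription factor NRF1 (gene Nfe2l1) raises many proteasome genes together. Blood stem cells are known to make protein slowly and to be sensitive to misfolded protein.

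The promoters of the genes are shown first because they carry a feature that the choice by symbol did not use. RefSeq promoter windows (GRCm38.p6, 250 bases before to 50 after the annotated start) were found for 42 of the 50 genes. Missing were Psma8, Psmb1, Psmb2, Psmb7, Psmc3, Psmd3, Psmd7 and Psmg2. The letters CCGGAAG, the core of many sites of ETS transcription factors, stood on either strand in 16 of the 42, or 38.1%. Among all 27025 genes with a window the share was 9.93%, and among 15691 genes of this array 13.2%. A gene counted if any of its windows held the letters, and 4 of the 42 genes had 2 windows. By part, the letters stood in 6 of 9 genes of the non-ATPase regulatory subunits and 3 of 5 of the ATPases. They stood in 1 of 7 of the alpha ring, 0 of 3 of the constitutive beta ring and 0 of 4 of the inducible or tissue-specific beta genes. The alpha ring gene, Psma6, held them only in the window that begins at base 55398575 of chromosome 12. The chaperones had 2 of 6, the activators and the inhibitor 2 of 6. Psmc3ip and Psme3ip1, which match the rule by name only, had 2 of 2, and without them the letters stood in 14 of 40. A match describes the sequence and shows no binding. The share among genes of like expression level was not taken, and a link between the letters and the drug was not tested. Stretches of 100 bases follow for the regulatory-particle genes Psmd4 and Psmd13 and the chaperone gene Psmg3, which had the smallest p-values in the drug comparison, for Psme4, which varied most between array numbers, and for the ATPase gene Psmc2. Capitals mark CCGGAAG or its reverse complement, and each line reads 5′ to 3′ on the strand of the gene.
Psmd4, chr3:95042687-95042786, minus strand: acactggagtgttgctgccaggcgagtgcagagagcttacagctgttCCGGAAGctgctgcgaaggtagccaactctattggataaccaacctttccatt
Psmd13, chr7:140882341-140882440, plus strand: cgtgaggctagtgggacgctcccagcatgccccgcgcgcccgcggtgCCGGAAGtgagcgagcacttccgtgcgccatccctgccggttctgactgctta
Psmg3, chr5:139826845-139826944, minus strand: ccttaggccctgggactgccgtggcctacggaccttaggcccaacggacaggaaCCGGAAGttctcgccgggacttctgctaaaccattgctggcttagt
Psme4, chr11:30771675-30771774, plus strand: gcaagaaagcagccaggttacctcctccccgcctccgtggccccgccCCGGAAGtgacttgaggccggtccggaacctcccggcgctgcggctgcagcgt
Psmc2, chr5:21785144-21785243, plus strand: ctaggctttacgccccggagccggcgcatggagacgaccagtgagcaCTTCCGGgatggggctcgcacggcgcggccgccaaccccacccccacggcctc

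Other letters were searched in the same windows. TGACNNNGC, the core of the element that NRF1 and its relatives bind, stood in 5 of the 42 genes (11.9%) against 15% of the array's genes. CCAAT stood in 16 (38.1%) against 42.2%. GAAA, any pair of bases and GAAA again resemble an interferon response element. They stood in 5 (11.9%) against 3.94%, and Psme1, an interferon-induced activator gene, was 1 of the 5. The remaining 4 were Psmb3, Psmd4, Psmd9 and Psmg4. Matches of different motifs overlapped in 0 cases.

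Transcripts of cell type markers were read in the same arrays and set against the median gene level of 6.79 on the log2 scale. Of the genes behind the sort, Kit was at 12.89 ± 0.049 (SD, n = 4) in vehicle and 12.88 ± 0.05 (SD, n = 4) in eltrombopag arrays. Slamf1, which encodes CD150, was near the median level, at 7.01 ± 0.31 (SD, n = 4) and 7.07 ± 0.65 (SD, n = 4), with eltrombopag array 1 below it at 6.19. Cd48, the antigen sorted against, was at 5.96 ± 0.22 (SD, n = 4) and 6.21 ± 0.39 (SD, n = 4), below the median level. The Sca-1 gene was not analysed here. Means over all arrays of the 9 stem cell markers measured ran from 6.85, for Procr, to 12.89. The mean level of 5 granulocyte and monocyte markers ran from 6.47 to 6.87 in vehicle and from 6.55 to 6.85 in eltrombopag arrays, of 2 B cell markers from 5.52 to 5.79 and from 5.60 to 5.99, and of 4 T and NK cell markers from 5.47 to 5.73 and from 5.44 to 5.59. That of 4 stromal and endothelial markers ran from 7.05 to 7.23 and from 6.91 to 7.06, and the erythroid gene Klf1 from 6.62 to 6.86 and from 6.32 to 6.99. Among these markers, Csf1r, Elane, Pecam1, Col1a1 and Cxcl12 had means above the median level in both groups, with Pecam1 highest at 9.09 and 8.96. Cd3e and Cdh5 lay below the lower quartile of 5.05. The mean of the granulocyte and monocyte list hides the spread of S100a8. It ran from 4.35 to 6.21 in vehicle and from 4.04 to 6.63 in eltrombopag arrays, lowest in array 2 and highest in array 3 of each group. The granulocyte gene Mpo was at 5.56 ± 0.16 (SD, n = 4) and 5.86 ± 0.29 (SD, n = 4), higher in all 4 pairs of arrays with the same number. Its log2 difference was 0.29 (SE 0.15, unadjusted p 0.0738 in limma, and 0.0212 with the array number as a block, where the adjusted p was 0.984). The part of these markers in the results below was not tested. In bulk cells, fewer cells of a type and less RNA per cell cannot be told apart.

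Proteasome transcripts were well measured in these cells. Of the 50 genes, 48 lay above the median gene level of 6.79. The exceptions were Psmb11, a beta subunit of the thymus, whose mean over all arrays of 5.23 was near the lower quartile, and Psma8, an alpha subunit of the testis, at 6.08. Replicates lay closer together than for genes at large: the median SD over the 50 genes was 0.11 in vehicle and 0.10 in eltrombopag arrays, against 0.17 and 0.17 over all genes. Since each probe set has its own response, the levels of different genes are not ranked.

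**Figure D1:**
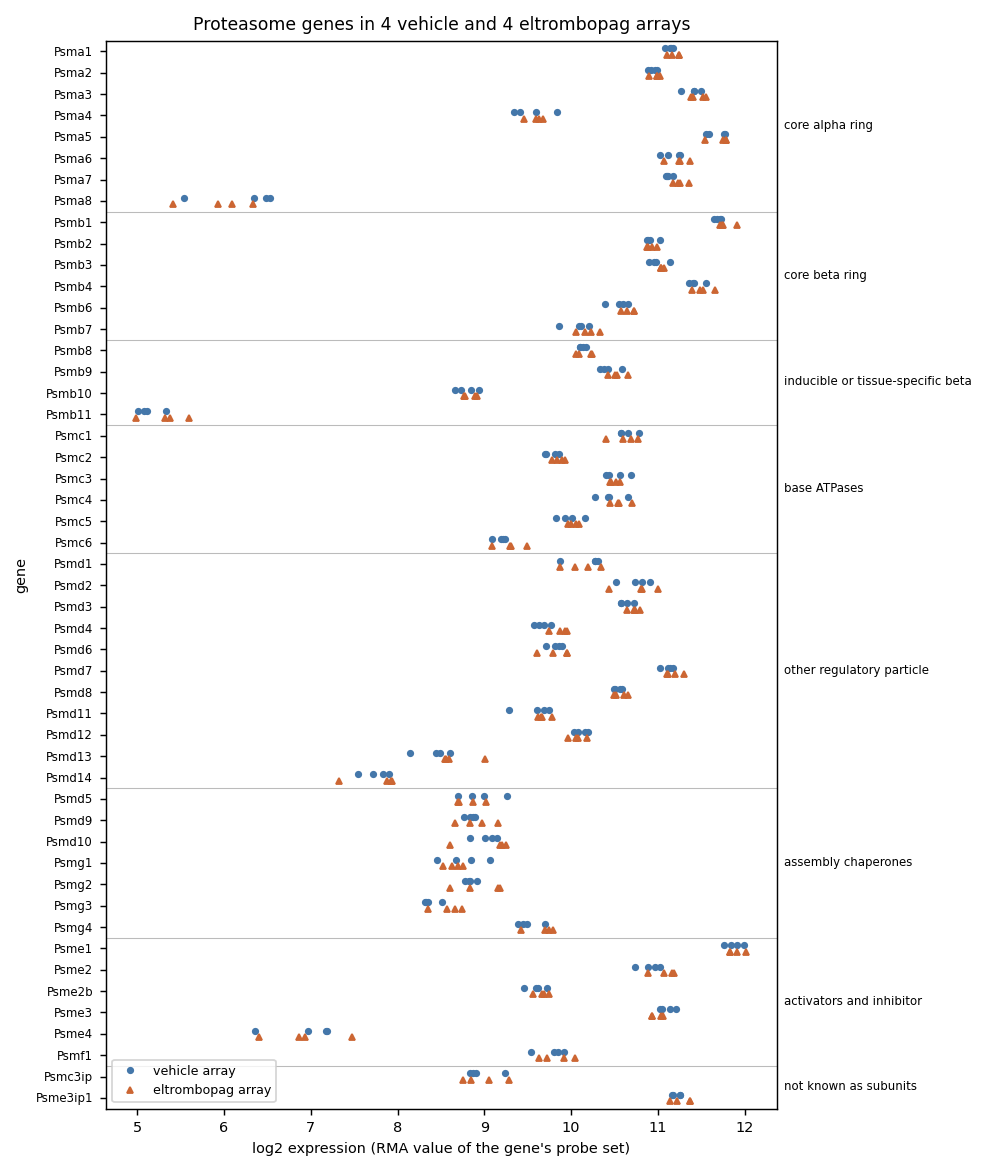
Log2 expression of each of the 50 genes (rows, grouped by part of the proteasome) in 4 vehicle arrays (circles) and 4 eltrombopag arrays (triangles). The points of both groups overlap in every row; Psma8, Psmb11 and Psme4 lie lowest, and the first and last of them spread widely.

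Between eltrombopag and vehicle, no difference of a proteasome transcript passed the test. limma called 0 of the 50 at an adjusted p under 0.05, against 0% of all 19505 genes, and every adjusted p was 0.99978. At an unadjusted p under 0.05 there were also 0 of 50, against 1.74% of all genes higher and 1.59% lower with the drug. The groups did not overlap for 0 of the 50 genes, against 1.12% of all genes above and 1% below. The intervals were narrow, but they rest on scatter among arrays that may be technical, so they may not cover variation between animals. For 49 of the 50 genes the 95% interval lay within a 1.5-fold change in either direction, as it did for 88.0% of all genes. The exception was Psma8, with an interval from -0.82 to 0.26 on the log2 scale. The median half-width of the interval was 0.23 for the proteasome genes and 0.28 over all genes.

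Small differences leaned towards higher values with eltrombopag. Of the 50 genes, 40 were higher and 10 lower, where 52.3% of all genes were higher. The median log2 difference was 0.052, against 0.0071 over all genes and 0.00092 over the 9752 genes above the median level. The log2 differences ran from -0.28 for Psma8 to 0.26 for Psmd13. Among pairs of arrays with the same number, 8 of the 50 genes (16.0%) were higher in all 4 pairs and 0 were lower in all 4, against 6.73% and 5.87% of all genes. The lean is a description without a test, since genes of 1 complex are not independent of each other, and it rests on no gene that passed. Leaving out 1 array at a time gave 36 to 41 genes higher, and without vehicle array 4 the median was 0.083.

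**Figure D2:**
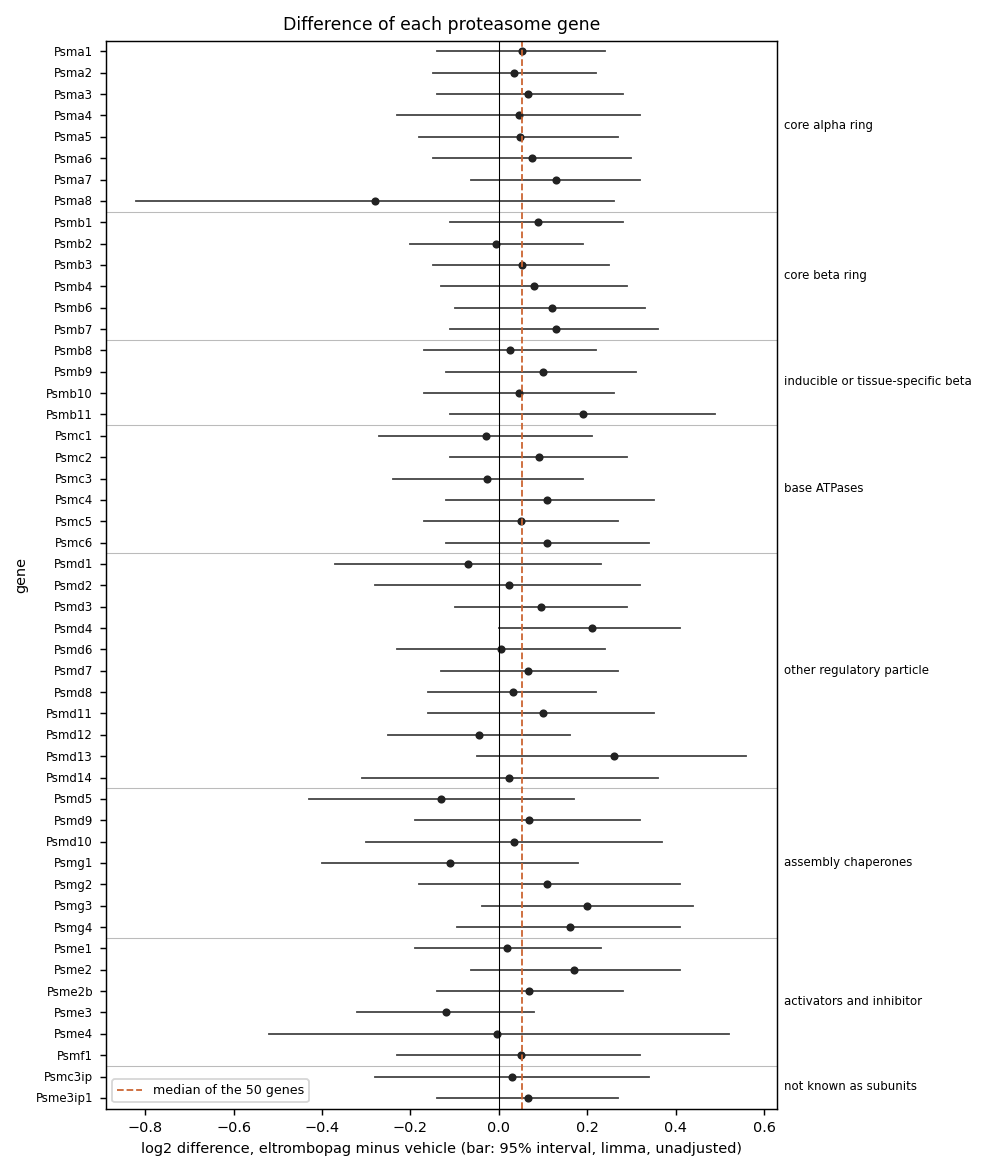
Log2 difference, eltrombopag minus vehicle, of each gene (point) with its unadjusted 95% interval from limma (bar). Every interval holds 0, and most points lie a little to the right of it, around the median of 0.052 (dashed line).

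Array by array the lean was uneven. The median deviation of the 50 genes from their own means was -0.056, -0.07, -0.028 and 0.03 in vehicle arrays 1 to 4. It was 0.053, -0.011, 0.024 and 0.065 in eltrombopag arrays 1 to 4. Vehicle array 4 thus lay above eltrombopag arrays 2 and 3, and the groups overlapped. Eltrombopag array 4 had 39 of the 50 genes above their mean and vehicle array 2 had 13. Over all genes the medians lay between -0.014 and 0.019.

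**Figure D3:**
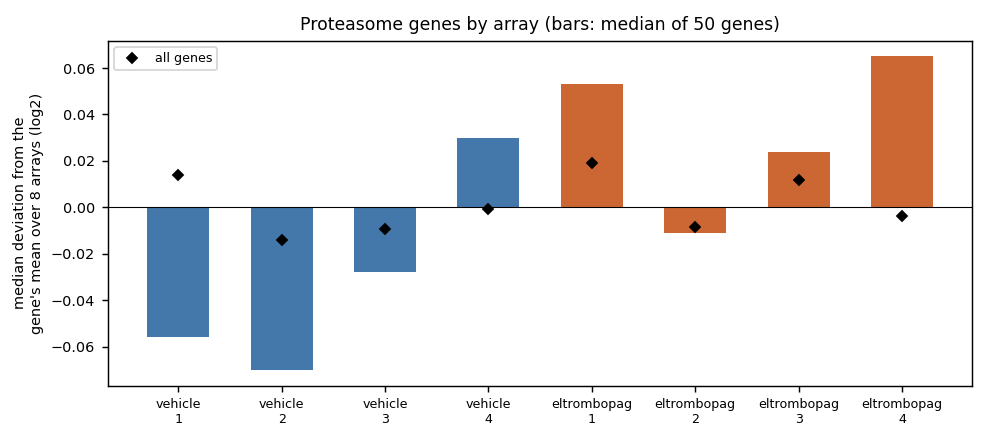
Median deviation of the 50 proteasome genes from each gene's mean over 8 arrays (bars, log2 scale) and the same over all genes (diamonds). Vehicle arrays 1 to 3 lie below 0, vehicle array 4 and eltrombopag arrays 1, 3 and 4 above, and eltrombopag array 2 just below.

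In the alpha ring of the core, the gate through which substrates enter, 7 of 8 genes were higher and 0 passed. The median log2 difference was 0.05. Psma7, whose product takes the same place in the ring as that of the testis gene Psma8, had log2 values of 11.11, 11.09, 11.12 and 11.18 in vehicle arrays 1 to 4 and 11.25, 11.17, 11.23 and 11.36 in eltrombopag arrays. It was higher in all 4 pairs, but the lowest eltrombopag value lay just under the highest vehicle value. Its log2 difference was 0.13 (SE 0.087, interval -0.064 to 0.32). Psma8 had 6.53, 6.48, 6.35 and 5.54 in vehicle and 6.34, 6.09, 5.41 and 5.93 in eltrombopag arrays. The low arrays were vehicle 4 and eltrombopag 3, so the groups overlapped widely, and the difference was -0.28 (SE 0.24). It was -0.51 without vehicle array 4 (unadjusted p 0.0259, adjusted p 0.99988 in limma) and -0.11 without eltrombopag array 3. The remaining 6 genes, Psma1 to Psma6, had log2 differences between 0.035 and 0.076.

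In the constitutive beta ring, 5 of 6 genes were higher and 0 passed. The median log2 difference was 0.084. Psmb7, the subunit that cuts after basic residues, had 10.11, 9.86, 10.09 and 10.21 in vehicle arrays and 10.23, 10.06, 10.16 and 10.33 in eltrombopag arrays. Array 2 was lowest in each group, and the value was higher in all 4 pairs by 0.067 to 0.20. The log2 difference of 0.13 had an SE of 0.11, and it was 0.058 without vehicle array 2 and 0.083 without eltrombopag array 4. Psmb6, the subunit that cuts after acidic residues, had 10.39, 10.60, 10.55 and 10.66 in vehicle and 10.73, 10.57, 10.64 and 10.72 in eltrombopag arrays. Vehicle array 1 was its lowest value, and the difference was 0.12 (SE 0.10), or 0.062 without that array. The structural subunits Psmb1, Psmb3 and Psmb4 differed by 0.088, 0.053 and 0.08, and Psmb2 by -0.0073.

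The inducible beta subunits mark the immunoproteasome. With the thymic Psmb11, 4 of 4 genes were higher and 0 passed. Psmb8 had 10.14, 10.10, 10.10 and 10.17 in vehicle and 10.24, 10.06, 10.09 and 10.23 in eltrombopag arrays, with a log2 difference of 0.026 (SE 0.089, interval -0.17 to 0.22). Psmb9 had 10.43, 10.33, 10.38 and 10.59 in vehicle and 10.66, 10.43, 10.51 and 10.53 in eltrombopag arrays, a difference of 0.10 (SE 0.10), or 0.055 without eltrombopag array 1 and 0.064 without vehicle array 2. Psmb10 had 8.66, 8.73, 8.85 and 8.94 in vehicle and 8.78, 8.77, 8.92 and 8.89 in eltrombopag arrays, a difference of 0.046 (SE 0.10). Leaving out 1 array at a time turned the sign for Psmb8 (-0.0011 without eltrombopag array 1) and for Psmb10 (-0.00034 without vehicle array 1). In all of them the groups overlapped. Psmb11, restricted to thymic epithelium and dim here, had 5.33, 5.11, 5.01 and 5.08 in vehicle and 5.60, 5.32, 4.99 and 5.38 in eltrombopag arrays, a difference of 0.19 (SE 0.14). It was 0.10 without eltrombopag array 1 and 0.30 without eltrombopag array 3 (unadjusted p 0.0335, adjusted p 0.99975 in limma).

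Each inducible subunit can take the place of a constitutive one, and within-array differences show whether a pair moved apart. Psmb9 minus Psmb6 was -0.12 ± 0.13 (SD, n = 4) in vehicle arrays and -0.13 ± 0.049 (SD, n = 4) in eltrombopag arrays, a change of -0.019 on the log2 scale. Psmb10 minus Psmb7 was -1.27 ± 0.14 (SD, n = 4) and -1.35 ± 0.11 (SD, n = 4), a change of -0.082. Both changes were smaller than the SD among replicates of vehicle. They compare the balance between groups of arrays, not the amounts of the subunits in a cell. The partner of Psmb8 was not analysed here.

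Among the ATPases that unfold substrates, 4 of 6 genes were higher and 0 passed. Their median log2 difference was 0.07. Psmc4 had 10.44, 10.27, 10.43 and 10.65 in vehicle and 10.54, 10.45, 10.55 and 10.70 in eltrombopag arrays. Its value was higher in all 4 pairs, by 0.055 to 0.18, and in both groups array 2 was lowest and array 4 highest. The log2 difference was 0.11 (SE 0.11), and it was 0.055 without vehicle array 2, 0.066 without eltrombopag array 4 and 0.18 without vehicle array 4. Psmc6 had 9.22, 9.19, 9.24 and 9.09 in vehicle and 9.30, 9.31, 9.09 and 9.49 in eltrombopag arrays. The lowest value of each group was equal to 2 decimals, and the difference was 0.11 (SE 0.10), or 0.044 without eltrombopag array 4 and 0.18 without eltrombopag array 3. Psmc1 and Psmc3 differed by -0.03 and -0.026, Psmc2 by 0.09 and Psmc5 by 0.05.

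Among the 11 non-ATPase subunits of the regulatory particle, 9 were higher and 0 passed. Their median log2 difference was 0.033. Psmd4, a receptor that binds ubiquitin chains, had the smallest p of all 50 genes. It had 9.57, 9.63, 9.69 and 9.77 in vehicle arrays and 9.93, 9.87, 9.95 and 9.75 in eltrombopag arrays. Eltrombopag arrays 1 to 3 lay above every vehicle value, and eltrombopag array 4 lay between vehicle arrays 3 and 4. The log2 difference was 0.21 (SE 0.093, interval -0.00038 to 0.41, unadjusted p 0.0504 in limma). Over the alternatives its unadjusted limma p ran from 0.031 with trend and robust estimation to 0.454 in numbers 3 and 4 only. With the array number as a block it was 0.0751 for a fixed and 0.0377 for a random block. No adjusted p was under 0.984.

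Psmd13, a structural subunit of the lid, had 8.14, 8.61, 8.49 and 8.44 in vehicle and 8.56, 9.01, 8.59 and 8.55 in eltrombopag arrays. It was higher in all 4 pairs, by 0.42, 0.40, 0.10 and 0.11 for numbers 1 to 4. Its log2 difference of 0.26 (SE 0.14) was the largest of the 50 genes towards higher values with all arrays in, with an unadjusted p of 0.0921 in limma and of 0.039 with the array number as a block (adjusted p 0.984). The difference was 0.15 without eltrombopag array 2 and 0.16 without vehicle array 1, where that of Psmd4 was 0.17, and 0.10 in numbers 3 and 4 only. In the fit with a fixed block Psmd13 was the single proteasome gene under 0.05 unadjusted. There 2.34% of all genes were higher at that level and 2.3% lower. With a random block the single gene was Psmd4, and the unadjusted p of Psmd13 was 0.0615 in limma. With trend and robust estimation there were 2, Psmd4 (unadjusted p 0.031 in limma) and Psma7 (0.0494). The share of all genes at that level is not given here for these fits, so the counts are not read as a result. Psmd3, a lid subunit, was also higher in all 4 pairs, by 0.068 to 0.14, with a difference of 0.095 (SE 0.088). Psmd14, the enzyme that removes ubiquitin chains as the substrate enters, differed by 0.023 (SE 0.15), from -0.045 without vehicle array 3 to 0.17 without eltrombopag array 3. The scaffold subunits Psmd1 and Psmd2, the largest of the cap, differed by -0.07 (SE 0.14) and 0.022 (SE 0.14).

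The assembly chaperones build the particle and leave it. Their median SD was 0.13 in vehicle and 0.17 in eltrombopag arrays. The median SD was 0.10 and 0.089 over the 31 genes of the constitutive core and the regulatory particle, and 0.17 and 0.17 over all genes. Of 7 genes 5 were higher and 0 passed. Their median log2 difference was 0.068. Psmg3 and Psmg4 encode the partners that help the alpha ring form. Psmg3 had 8.35, 8.33, 8.32 and 8.51 in vehicle and 8.74, 8.35, 8.57 and 8.66 in eltrombopag arrays, a difference of 0.20 (SE 0.11, unadjusted p 0.0907 in limma). Psmg4 had 9.70, 9.45, 9.39 and 9.49 in vehicle and 9.79, 9.75, 9.42 and 9.70 in eltrombopag arrays, a difference of 0.16 (SE 0.11). Both were higher in all 4 pairs, and in both the groups overlapped. Psmg1 and Psmg2, the other pair of core chaperones, differed by -0.11 (SE 0.13) and 0.11 (SE 0.13).

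Of the base chaperones, Psmd5 differed by -0.13 (SE 0.13; -0.028 without vehicle array 2 and -0.22 without vehicle array 4), Psmd9 by 0.068 (SE 0.12) and Psmd10 by 0.035 (SE 0.15). By number, the median difference over the 7 chaperones was -0.13, 0.048, 0.026 and 0.21 for pairs 1 to 4. Pair 1 was led by Psmd10 (-0.40), Psmg1 (-0.30) and Psmg2 (-0.29), while Psmg3 was higher there (0.39). In the same pair the medians of the constitutive beta ring and of the ATPases were 0.14 and 0.11.

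**Figure D4:**
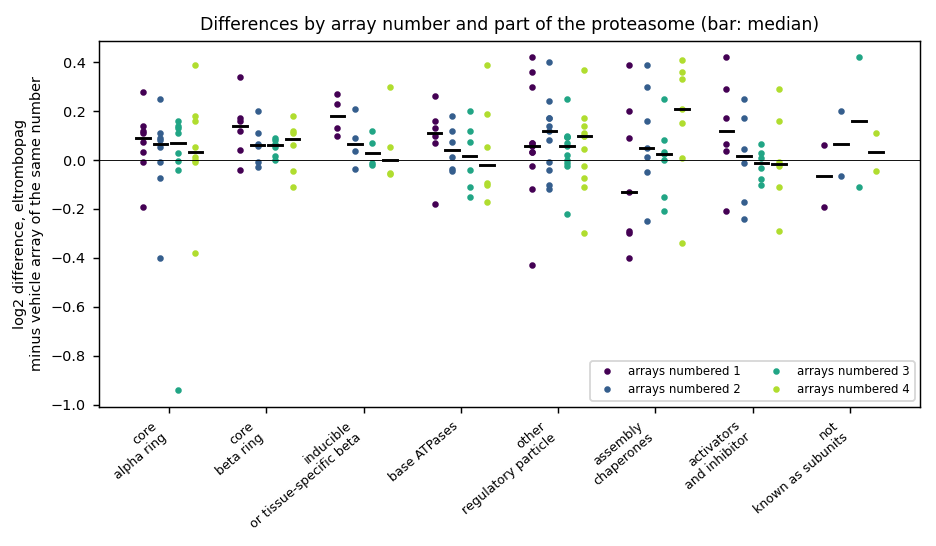
Log2 difference between the eltrombopag and the vehicle array of the same number for each gene (points), by part of the proteasome, with the median (black bar). The alpha ring, the constitutive beta ring and the non-ATPase regulatory subunits have medians above 0 in all 4 pairs, and the chaperones go from -0.13 in pair 1 to 0.21 in pair 4; the single point near -0.94 is Psma8.

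Of the activators and the inhibitor, 4 of 6 genes were higher and 0 passed. The median log2 difference was 0.034. Psme1 and Psme2 encode an interferon-induced cap. Psme1 had 11.76, 11.84, 11.99 and 11.91 in vehicle and 11.83, 11.83, 12.02 and 11.91 in eltrombopag arrays, a difference of 0.018 (SE 0.095), or -0.023 without eltrombopag array 3. Psme2 had 10.74, 10.89, 10.97 and 11.03 in vehicle and 11.16, 11.07, 10.89 and 11.19 in eltrombopag arrays, with array 3 the lowest of its group under the drug. Its difference was 0.17 (SE 0.11). Psme2b is a near copy of Psme2, so their probe sets may share signal. It differed by 0.069 (SE 0.095), or 0.023 without vehicle array 1.

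Psme3, a cap of the nucleus that acts without interferon, leaned the other way. It had 11.14, 11.21, 11.05 and 11.03 in vehicle and 10.93, 11.04, 11.06 and 10.93 in eltrombopag arrays. Its log2 difference was -0.12 (SE 0.09, interval -0.32 to 0.08), lower in 3 of 4 pairs. Psmf1, which encodes a protein that inhibits the core in the test tube, had 9.54, 9.80, 9.85 and 9.92 in vehicle and 9.72, 10.04, 9.92 and 9.63 in eltrombopag arrays. Its difference was 0.05 (SE 0.12), and it was -0.028 without vehicle array 1.

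Psme4, a large single-chain activator, differed between array numbers more than between groups. It had 6.36, 7.17, 6.97 and 7.19 in vehicle arrays 1 to 4 and 6.40, 6.93, 6.86 and 7.48 in eltrombopag arrays 1 to 4. Array 1 was by far the lowest in both groups. Between groups the log2 difference was -0.0036 (SE 0.24), and its sign turned with quantile normalization, so no direction is given. Across the 4 numbers limma's F test, with group in the model, gave an unadjusted p of 0.00295 and an adjusted p of 0.253.

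Over the 50 genes, 0 passed that test across numbers at an adjusted p under 0.05, against 0.21% of all genes. At an unadjusted p under 0.05 there were 3, or 6.0%, against 10.2% of all genes. The other 2 were Psmd14 and Psmd5. Psmd14 had 7.90, 7.83, 7.54 and 7.72 in vehicle and 7.93, 7.94, 7.32 and 7.88 in eltrombopag arrays, lowest in array 3 of each group (unadjusted p 0.0374, adjusted p 0.46 in limma). Psmd5 had 9.0, 9.26, 8.86 and 8.70 in vehicle and 8.87, 9.02, 8.70 and 8.71 in eltrombopag arrays, highest in array 2 of each group (unadjusted p 0.0448, adjusted p 0.476 in limma). Psmb11 and Psmd13 followed, with unadjusted p-values of 0.0599 and 0.0759 in limma. The test treats the 2 arrays of a number as independent, which the labels do not state.

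**Figure D5:**
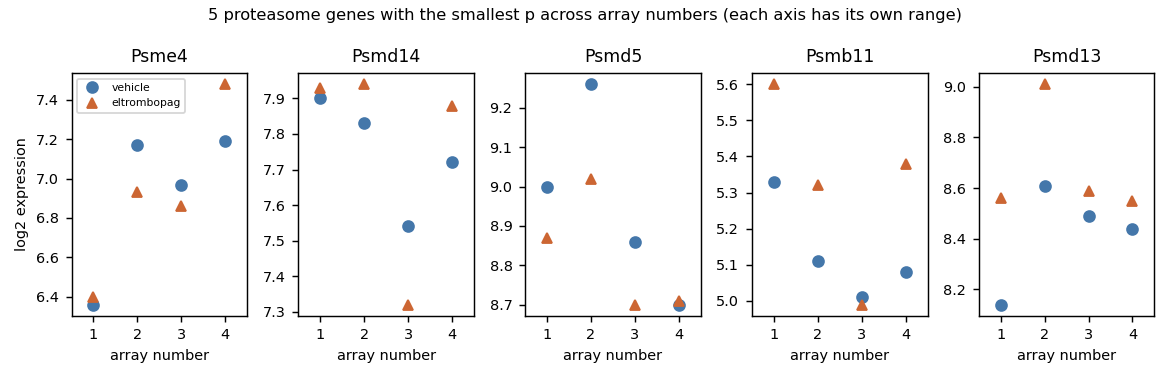
Log2 expression against array number for the 5 genes with the smallest p across numbers, vehicle as circles and eltrombopag as triangles; each panel has its own vertical range. Psme4 is lowest at number 1, Psmd14 at number 3 and Psmd5 is highest at number 2 in both groups.

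Genes that feed or assemble the proteasome without bearing a Psm symbol were nearly even in direction. In a list of ubiquitin shuttles, proteasome-bound enzymes and the NRF1 gene, 12 of 21 measured genes were higher and 0 passed. Their median log2 difference was 0.0017. Nfe2l1 itself differed by -0.026 (SE 0.11), and Pomp, the chaperone of the beta ring, by 0.087 (SE 0.10). The smallest p-values belonged to Ube3c, a ubiquitin ligase bound to the proteasome, at -0.18 (SE 0.12), and Ubqln1, a ubiquitin shuttle, at 0.16 (SE 0.14). Ubqln1 was at 0.037 without eltrombopag array 1 and 0.068 without vehicle array 3, and Ube3c at -0.10 without eltrombopag array 4. Ube3c had 9.22, 9.18, 9.14 and 8.89 in vehicle and 9.01, 8.91, 9.09 and 8.70 in eltrombopag arrays, lower in all 4 pairs with overlapping groups. The difference between this list and the Psm genes was not tested.

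The immunoproteasome genes work with the genes of antigen display, and Psmb8 and Psmb9 both lie beside Tap1 on chromosome 17. In a list of such genes, 6 of 10 were higher and 0 passed, and the median log2 difference was 0.017. Tap1, the peptide transporter, differed by 0.052 (SE 0.09, interval -0.15 to 0.25). The smallest p-values were those of Erap1, a peptide trimmer, at -0.12 (SE 0.11), and of the peptide-loading gene Tapbp, at -0.076 (SE 0.092), which was -0.035 without eltrombopag array 4.

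The 2 genes that match the symbol rule only by name showed small differences too. Psmc3ip differed by 0.03 (SE 0.14) and Psme3ip1 by 0.065 (SE 0.093). Without them, 38 of 48 genes were higher and the median log2 difference was again 0.052.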

How the data were processed

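The table deposited by the authors holds log2 expression, with 1 value for each probe set on each array. RMA, oligo and limma are listed in the submitters' processing notes, with no versions or roles. Per the labels' protocols, about 10 ng of RNA was amplified with a 3′ labelling kit. RMA sets arrays to a common distribution, so differences in total RNA are lost. The array's genome build is not given in the sources used. Of 22206 probe sets, 19572 had 1 gene symbol, 0 had several and 2634 were unnamed here, which left 19505 genes. For 55 genes with several probe sets the one with the highest mean was used, and no filter was set on dim genes.

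The test was limma 3.58.1 (R 4.3.3; lmFit and eBayes) with group as the only term, two-sided, adjusted by Benjamini-Hochberg over all genes, with calls at an adjusted p under 0.05. Variation between array numbers was tested in limma with group and number as terms. Both were tried on simulated data with planted changes larger than any difference of the proteasome genes here. That does not show whether changes as small as these would be found. The members, parts and lists were chosen with earlier results of these data known. Values are given for Psmb6 to Psmb10, all Psme and Psmf genes, the 2 genes with the smallest p in each other part and list, and the 5 with the smallest p across numbers; other genes named were chosen after their values were seen. One planned pair of beta subunits is not analysed here.

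Deviations from the group means correlated across probe sets at 0.241, 0.294, 0.192 and 0.142 for arrays numbered 1 to 4 and at -0.208 to 0.171 for arrays of unlike number. All 4 exceeded 0.1, but so did vehicle array 3 with eltrombopag array 4 (0.168) and vehicle array 4 with eltrombopag array 3 (0.171). The correlations therefore do not settle the pairing, and the labels do not state it. Equal numbers were taken as pairs for the pair differences and in the replicate block only, and the main test was unpaired. In every pair of arrays 0 values were equal. Alternatives were the replicate block, fixed or random, other scalings, array weights, a filter on dim genes, the mean of probe sets, another variance model, numbers 1 and 2 or 3 and 4 only, and leaving out each array. The number of arrays limits the precision.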

Additional observations from a re-analysis of the deposited data

Results flagged for a closer look

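For the 50 genes and 4 genes of the lists, each group of 4 arrays was searched for 1 array standing apart, 108 groups in all. By Dixon's test at the 95% level, which compares the gap to the nearest array with the range of the group, 7 cases were found. About 1 group in 20 is picked by chance, or 5.4 here.

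Psmd1, a scaffold of the regulatory particle, stood at 9.87 in vehicle array 2, with the other arrays at 10.28 to 10.31 (gap over range 0.931). Psmd13 had 9.01 in eltrombopag array 2 against 8.55 to 8.59 (0.906). Psmd14, the deubiquitinase, had 7.32 in eltrombopag array 3 against 7.88 to 7.94 (0.904). The chaperone gene Psmd10 had 8.61 in eltrombopag array 1 against 9.18 to 9.25 (0.892). Psmg3 had 8.51 in vehicle array 4 against 8.32 to 8.35 (0.85). Psmc3ip had 9.24 in vehicle array 1 against 8.83 to 8.90 (0.838), and Psma5 had 11.54 in eltrombopag array 2 against 11.75 to 11.79 (0.837). The 7 cases fell on arrays of all 4 numbers and on both groups.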

How the results depend on the processing

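In all 18 alternatives 0 proteasome genes passed between eltrombopag and vehicle, and 0 of all genes tested passed there too. The count is therefore not particular to the proteasome genes. With the replicate block 0 passed either, with 1 at an unadjusted p under 0.05 and no adjusted p under 0.984, and the block changed no other call. The median log2 difference over the 50 genes was 0.076 in numbers 1 and 2 only, and it ran from 0.037 (without eltrombopag array 4) to 0.083 (without vehicle array 4) when 1 array was left out. In the other alternatives it moved by less than the SD of 0.022 between the medians of the 4 pairs. Of 26 named genes, 18 kept the sign of their difference in every alternative that held them, though not its size. With 1 array left out, Psma8 ran from -0.51 to -0.11, Psmd13 from 0.15 to 0.32, Psmb11 from 0.10 to 0.30, Psmb7 from 0.058 to 0.17, Psmb6 from 0.062 to 0.15, Psmb9 from 0.055 to 0.15, Psmc4 from 0.055 to 0.18, Psmc6 from 0.044 to 0.18, Psmd5 from -0.22 to -0.028, Ube3c from -0.25 to -0.10 and Ubqln1 from 0.037 to 0.22. With arrays left out, Psmb8 ran from -0.0011 to 0.056, Psmb10 from -0.00034 to 0.094, Psme1 from -0.023 to 0.056, Psme4 from -0.19 to 0.17, Psmf1 from -0.028 to 0.12 and Psmd14 from -0.045 to 0.17. In numbers 3 and 4 only, the difference was 0.093 for Psme4, -0.11 for Psmf1, -0.027 for Psmd14 and -0.028 for Psme2b. In numbers 1 and 2 only it was 0.02 for Tapbp, with array weights -0.0016 for Psme1, and with quantile normalization once more 0.0089 for Psme4. The cause was not tested. Across numbers, 0 of the 50 proteasome genes passed in all 10 alternatives. The count over all 19505 genes was 41, or 0.21%. It became 198 with trend and robust estimation, 26 with array weights, and 12, 10, 2 and 13 without number 1, 2, 3 or 4. Shares this small can leave 0 of 50 genes called, so the 0 does not set the proteasome genes apart. The small number of arrays limits the depth of every test.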
